A study of Mus musculus with 14 samples.

Results

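Constitutive regions are here the stretches of the mouse genome at which every H3K27ac library of the series had a peak of histone H3 lysine 27 acetylation (H3K27ac) among its 30000 kept summits. The 30000 highest-scoring peak summits of each of 7 H3K27ac libraries were kept, widened by 250 bp in both directions and joined where they overlapped, on chromosomes 1 to 19 and X. Of 60208 merged regions, 5002 held a kept summit from all 7 libraries, and 287 of these also held a summit of an IgG library, which measures the background of the assay. The remaining 4715 regions are the constitutive regions. They were thus chosen by their presence and their score in each library, and both are given below as a description.

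The libraries were made by CUT&Tag, in which an antibody directs a transposase to cut and tag the DNA beside a chromatin mark. The cells were CD11b+ tumour-associated macrophages, sorted by flow cytometry from T387 glioblastoma (GBM) xenografts grown in the brains of NSG mice, an immunodeficient strain that lacks mature T, B and natural killer cells and keeps its myeloid cells. Every animal carried a tumour and was dosed from day 7 after implantation, 4 times a week for 3 weeks, either with pracinostat, an oral inhibitor of histone deacetylases, or with the same solvent mixture without drug (the DMSO group). The growth protocol gives the pracinostat dose as 30 mg/kg by gavage, and the text on its preparation gives 3 mg/kg. The labels give no age or sex of the mice. H3K27ac antibody was used for 3 DMSO and 4 pracinostat libraries, and IgG for the same numbers. A CD11b sort takes other myeloid cells too, and in a sorted population a mark in few cells and a weak mark in many cannot be told apart.

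Acetylation of H3K27 neutralises a lysine of the histone tail and is written by the acetyltransferases p300 and CBP and removed by histone deacetylases. It marks nucleosomes that flank active promoters and enhancers. Regions that carry it in every sample of a cell type commonly include promoters of genes that every cell uses, which often lie in CpG islands, and the promoters and enhancers of the genes that define the lineage. Macrophage enhancers are typically bound by the lineage factor PU.1 (Spi1) together with AP-1, C/EBP and IRF factors.

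The lists differed in length. The 6 deeper H3K27ac libraries held 208401 to 291042 summits, and DMSO replicate 2 held 53503. In DMSO replicate 2, 34928 summits shared the lowest score, and 11425 of its 30000 kept summits were ties at that score, taken in file order. That order reached chromosomes 1 and 10 to 14 and stopped within chromosome 15. Of the regions kept in the other 6 lists, DMSO replicate 2 held 89.1% on chromosomes 1 and 10 to 14, and 73.4% on the chromosomes that follow 15 in the file. There were 313 constitutive regions (6.64%) that rested on a tied summit of this library. With the tied summits left out there were 4120 constitutive regions, and with the rule applied to the 6 other lists there were 6020. IgG libraries held 2194 to 18517 summits.

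Promoter sequences show what kind of sequence lies beneath these regions. The following 6 promoters with a constitutive region, and 1 without any kept summit, are shown as the 250 bases directly upstream of the start site, 5′ to 3′ on the strand of the gene, from RefSeq on GRCm38.p6 (the mm10 assembly). They were chosen after their values were seen, to show the CCAAT box, the GC box, the ETS and NRF1 motifs, the cAMP response element (CRE), an AP-1 site, a CpG-poor macrophage promoter and a neutrophil promoter without a kept summit. Capitals mark matches to any of 12 motifs on either strand. The motifs were the TATA box (TATAAA), the CCAAT box (CCAAT), the GC box (GGGCGG), ETS (CCGGAAG), a PU.1 type of ETS (GAGGAAGT), the palindromic NRF1 motif (in capitals at -61 to -52 of Snrnp70), YY1, the E-box (CACGTG), CRE (TGACGTCA), AP-1 (TGANTCA), IRF (a pair of GAAA with 2 bases between) and STAT (TTCNNNGAA).
Uvrag: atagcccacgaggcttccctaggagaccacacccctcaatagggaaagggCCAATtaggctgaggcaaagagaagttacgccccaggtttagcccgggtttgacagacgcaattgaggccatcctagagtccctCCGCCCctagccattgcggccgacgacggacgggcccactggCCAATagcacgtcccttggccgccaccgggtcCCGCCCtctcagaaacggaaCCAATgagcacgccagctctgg
Flcn: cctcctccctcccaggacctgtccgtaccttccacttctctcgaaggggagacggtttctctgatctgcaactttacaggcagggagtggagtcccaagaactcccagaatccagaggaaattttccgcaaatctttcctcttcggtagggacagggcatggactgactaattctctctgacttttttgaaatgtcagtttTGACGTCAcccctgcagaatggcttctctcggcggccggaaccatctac
Nfe2l2: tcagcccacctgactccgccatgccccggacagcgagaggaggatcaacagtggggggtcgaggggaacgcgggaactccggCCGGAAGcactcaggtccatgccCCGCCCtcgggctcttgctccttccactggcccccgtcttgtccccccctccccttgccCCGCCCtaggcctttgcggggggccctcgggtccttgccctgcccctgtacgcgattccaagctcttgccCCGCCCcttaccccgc
Snrnp70: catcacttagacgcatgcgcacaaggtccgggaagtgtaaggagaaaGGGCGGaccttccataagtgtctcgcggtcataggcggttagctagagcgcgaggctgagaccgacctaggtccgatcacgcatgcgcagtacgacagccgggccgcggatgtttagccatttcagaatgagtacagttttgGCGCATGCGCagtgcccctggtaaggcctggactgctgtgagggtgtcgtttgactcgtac
Hspa5: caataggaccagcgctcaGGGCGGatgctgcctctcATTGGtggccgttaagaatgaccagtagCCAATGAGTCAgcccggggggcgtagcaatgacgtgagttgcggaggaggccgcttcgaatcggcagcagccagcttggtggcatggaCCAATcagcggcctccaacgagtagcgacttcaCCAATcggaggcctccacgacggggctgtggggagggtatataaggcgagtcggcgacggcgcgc
Laptm5: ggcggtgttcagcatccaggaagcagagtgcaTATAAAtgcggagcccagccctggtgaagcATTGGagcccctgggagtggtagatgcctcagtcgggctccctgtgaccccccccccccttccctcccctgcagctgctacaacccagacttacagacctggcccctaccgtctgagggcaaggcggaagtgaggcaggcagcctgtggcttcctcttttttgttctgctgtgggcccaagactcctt
S100a9: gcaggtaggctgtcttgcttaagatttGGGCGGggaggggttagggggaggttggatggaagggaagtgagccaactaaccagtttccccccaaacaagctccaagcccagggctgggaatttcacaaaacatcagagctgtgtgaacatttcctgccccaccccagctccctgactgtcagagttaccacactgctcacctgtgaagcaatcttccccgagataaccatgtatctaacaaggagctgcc

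Uvrag (chr7:99141145-99141394, minus strand), a regulator of autophagosome maturation, carried 3 CCAAT boxes and 2 GC boxes in this window. Its highest summit lay 55 to 76 bases upstream of the start in all 7 libraries, at -67, -63 and -55 in DMSO and at -76, -67, -74 and -65 in pracinostat, around the CCAAT box at -74 to -70. Flcn (chr11:59810040-59810289, minus strand), the folliculin gene, whose product controls TFEB and lysosomal gene expression, held 1 CRE at -49 to -42. Its summits lay downstream of the start, 140 to 254 bases into the gene. Nfe2l2 (chr2:75704664-75704913, minus strand), encoding the oxidative stress factor NRF2, held 3 GC boxes and an ETS motif. Snrnp70 (chr7:45395743-45395992, minus strand), a protein of the U1 spliceosomal particle, held an NRF1 motif at -61 to -52, and its highest summits lay between -97 and 5. Hspa5 (chr2:34771840-34772089, plus strand), the endoplasmic reticulum chaperone BiP, held 4 CCAAT boxes, a GC box and an AP-1 motif that overlaps a CCAAT box.

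Laptm5 (chr4:130913066-130913315, plus strand) encodes a lysosomal membrane protein of blood cells. Its promoter had a CpG ratio (observed over the number that the base composition gives) of 0.31, against 0.669 at Uvrag and 1.10 at Snrnp70, and its highest summit lay 704 to 917 bases downstream of the start in 6 libraries and at -7 in pracinostat replicate 1. S100a9 (chr3:90695722-90695971, minus strand), a calcium-binding protein of neutrophils, had no kept summit within 1 kb of its start in any library, and a CpG ratio of 0.101.

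Constitutive regions lay mostly at genes. Of the 4715, 2891 (61.3%) held a kept summit within 1 kb of a start site of a protein-coding gene, or of either end of a gene for which the reference table gave no start site. A further 1224 (26.0%) overlapped a gene body only, and 600 (12.7%) lay between genes. Among 10110 regions kept in 4 to 6 lists, 39.5% lay at a gene start or end, and among 45096 regions kept in 1 to 3 lists, 12.0%. Width differed in the same order, with a median of 1397 bp in constitutive regions (832 to 2453 bp from the 10th to the 90th percentile), 940 bp in regions of 4 to 6 lists and 501 bp in those of 1 to 3, and a wider region has more chances to reach a gene. The next comparison therefore counts summits.

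Of the kept summits inside constitutive regions, 56.3, 55.7 and 55.2% lay within 1 kb of a gene start or end in the DMSO libraries, and 53.3, 56.7, 54.0 and 55.3% in the pracinostat libraries. The other kept summits of the same libraries were there in 33.7, 18.0 and 28.0% (DMSO) and 27.9, 35.1, 26.1 and 28.6% (pracinostat). The share was higher inside constitutive regions in 7 of 7 libraries, and the ranges do not overlap. The difference was 27.03 ± 5.24 percentage points (SD, n = 7; exact two-sided sign-flip permutation test, p = 0.0156, the smallest that 7 libraries allow, 0.0391 after Benjamini-Hochberg adjustment over 5 tests). Constitutive regions are the same in all 7 libraries and were chosen from all 7 lists, so these differences are not independent. The p-value therefore cannot measure replication, and nothing is concluded from it. Summits moved by 100 kb were within 1 kb of a gene start or end in 5.33 to 5.64% of cases inside constitutive regions and in 4.01 to 5.03% elsewhere, and IgG summits as deposited in 1.76 to 4.56%. Since strong summits are more often at genes, the comparison was repeated among the 10000 highest-scoring summits of each library, a setting chosen after seeing the data. There the difference was 20 points, with shares of 56.0 to 62.8% against 33.9 to 48.1%.

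The share was higher the more lists marked a region. Summits of regions found in 1 list were at a gene start or end in 5.84 to 16.9% of cases over the 7 libraries. Those of regions in 4 lists were there in 26.0 to 36.0%, and those of regions in all 7 lists, before the IgG exclusion, in 52.5 to 55.8%. Within the constitutive regions the share also differed with score. The 472 members lowest in mean percentile (the rank of a region's highest summit score among 48069 ranked regions of its library, where 100 is the highest) lay at a gene start or end in 40.5% of cases, and the 472 highest in 70.6%.

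**Figure D1:**
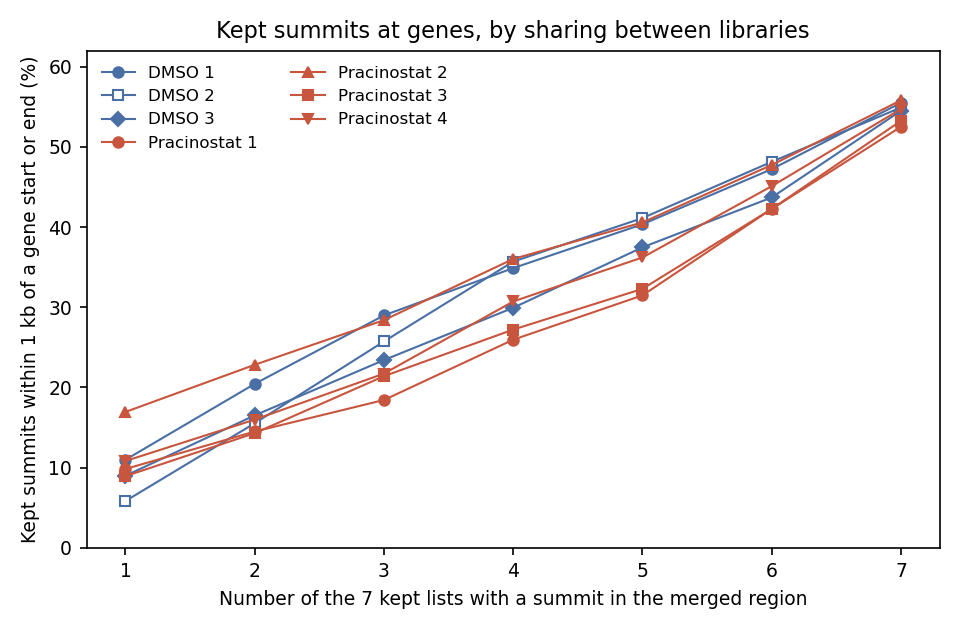
Percentage of kept summits within 1 kb of a gene start or end (vertical axis) in each of 7 H3K27ac libraries, by the number of kept lists with a summit in the same merged region (horizontal axis). DMSO libraries are blue and pracinostat libraries red, with DMSO replicate 2 as open squares; every line climbs to between 52.5 and 55.8% at 7 lists, where regions with an IgG summit are included.

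Around start sites the summits of constitutive regions were densest just upstream of the start, as the other kept summits were in 6 of 7 libraries (just downstream in pracinostat replicate 3). Over 14504 start sites with no other start within 3 kb, 1598 had a constitutive summit within 1 kb. The 100 bases directly upstream held 16.0, 16.2 and 12.6% of those summits in DMSO and 14.8, 18.9, 12.6 and 18.0% in pracinostat, and no other 100 bp bin held as many in any of the 7 libraries. The other kept summits had a comparable share there, with 18.7, 14.5 and 10.96% in DMSO and 15.1, 22.6, 11.1 and 18.0% in pracinostat, so this position was not particular to constitutive regions. The median offset of constitutive summits was 31.5, 15.5 and 5 bases in DMSO and -5, -26, 44 and -15 bases in pracinostat, where negative is upstream, and the groups overlap. Within regions, neighbouring kept summits of a library were a median of 315 to 335 bp apart in 6 libraries and 604 bp apart in DMSO replicate 2.

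**Figure D2:**
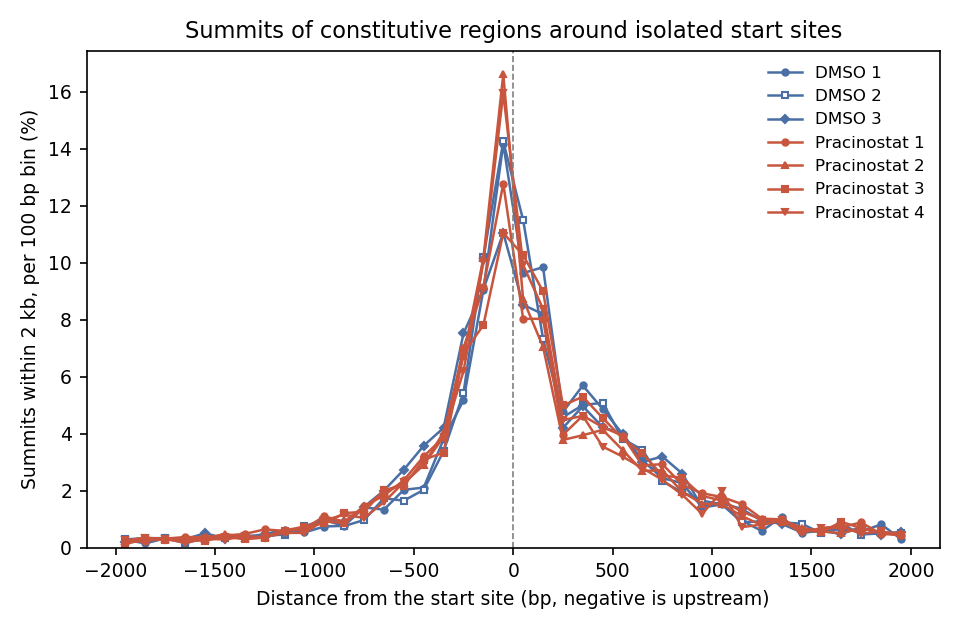
Summits of constitutive regions in 100 bp bins from 2 kb upstream to 2 kb downstream of isolated start sites (horizontal axis), as a percentage of each library's summits within that span (vertical axis). All 7 libraries, DMSO in blue and pracinostat in red, are highest in the bin directly upstream of the start.

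The promoters beneath these regions were rich in CpG. The 300 bases around the start (250 before and 50 after) had a median CpG ratio of 0.814 at 3318 promoters with a constitutive summit within 1 kb, 0.772 at 6792 promoters with another kept summit only, and 0.281 at 10910 promoters with none. A ratio above 0.6 was reached by 81.6, 72.6 and 22.7% of them, against 48.1% of all promoters. Compared within each library over the promoters that it marked, the mean ratio at constitutive regions exceeded that at other kept summits by 0.0358 ± 0.00911 (SD, n = 7), in 7 of 7 libraries (exact sign-flip permutation test, p = 0.0156, adjusted 0.0391). At constitutive regions the libraries marked nearly the same promoters, 3228 to 3267 of them, with mean ratios of 0.781 to 0.784. The 7 differences thus largely repeat the same comparison, and nothing is concluded from the p-value. The difference ranged from 0.0197 in DMSO replicate 1 to 0.0495 in pracinostat replicate 1.

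Motif letters followed the CpG content in part. GC boxes, which Sp1 and related factors bind, were in 69.1% of promoters at constitutive regions, 64.3% at other kept summits, 28.9% with none and 46.7% of all promoters of this length. ETS letters were in 23.2, 19.4 and 3.40% of the same classes and in 11.7% of all. Among promoters with a CpG ratio above 0.6, the GC box shares were nearly level, at 74.8, 74.4 and 73.0%, while the ETS shares were 26.0, 23.2 and 6.19%. CRE, bound by CREB and ATF factors, was in 4.61, 2.90 and 1.15% (2.26% of all), and CCAAT, bound by NF-Y, in 41.3, 37.4 and 38.3% (38.5% of all). In the CpG-rich promoters alone, CCAAT was in 42.2, 36.2 and 31.1%.

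TATA boxes ran the other way, at 5.12, 6.61 and 18.7% (12.7% of all), and at 4.88, 5.21 and 7.04% in the CpG-rich promoters. AP-1 letters were in 4.67, 4.42 and 9.40% (7.04% of all), and in 3.40, 3.21 and 4.01% of the CpG-rich ones. STAT letters were in 5.76, 7.04 and 8.82% (7.76% of all), with no such order in the CpG-rich promoters, at 5.51, 6.02 and 5.14%. The PU.1 type of ETS, which does not contain the ETS letters above, was in 3.98, 3.09 and 2.93% (3.15% of all). YY1 was in 2.65, 2.12 and 0.211% (1.21% of all), NRF1 in 2.14, 2.58 and 0.330% (1.34% of all), the E-box in 11.3, 10.1 and 5.49% (7.91% of all) and IRF in 2.59, 3.25 and 3.67% (3.36% of all). The order of IRF turned around in the CpG-rich promoters, at 2.48, 2.23 and 1.90%. These are shares of promoters with the letters, and whether a factor binds there was not measured.

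**Figure D3:**
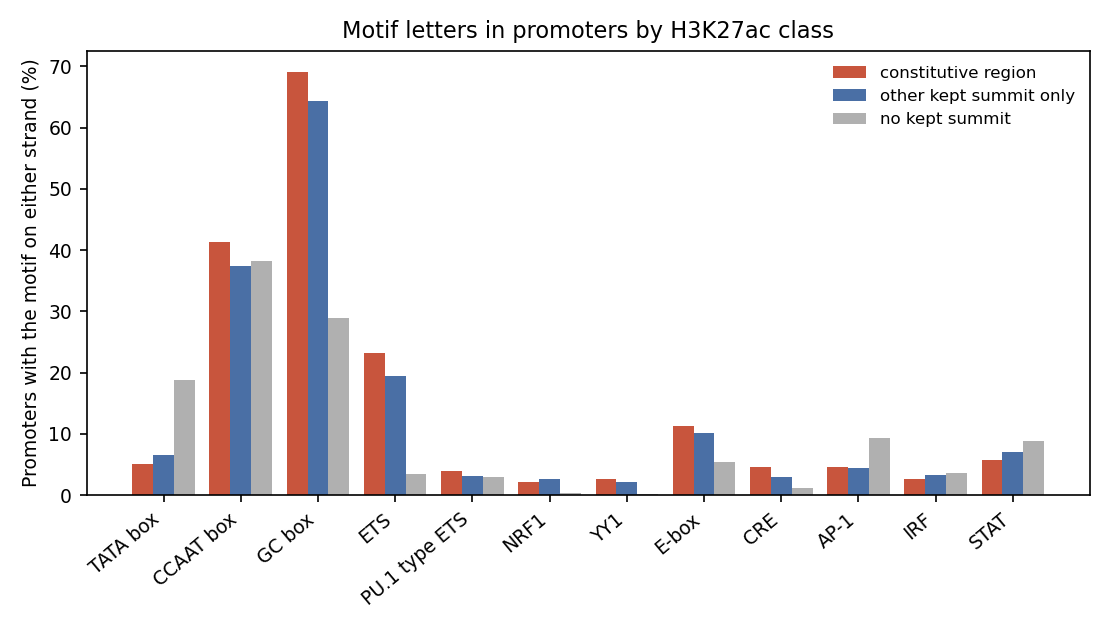
Percentage of promoters (300 bases around the start) with the letters of each of 12 motifs on either strand, for promoters with a constitutive region (red), with another kept summit only (blue) and with no kept summit (grey). GC box and ETS letters are least frequent and TATA letters most frequent where no summit was kept.

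Of 21631 protein-coding genes, 3313 (15.3%) had a constitutive region at a start or end, 7028 (32.5%) had other kept summits only and 11290 (52.2%) had none. When regions inside the gene were counted too, 3933 genes (18.2%) had a constitutive region. The gene lists below are read against the 15.3%, without a test. Counts that include regions inside the gene are read against the 18.2%. They name the pathways that a macrophage and its general upkeep rely on, and the cell types a CD11b sort could carry along.

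Protein folding and the lysosome led the lists. Of 30 chaperone and heat shock genes, 22 (73.3%) had a constitutive region, with Hspa5, the chaperonin subunits Cct6a and Tcp1 and the constitutive chaperone Hspa8 highest. Of 38 lysosomal genes, 23 (60.5%) had one, led by Lgmn, an asparagine-specific protease, Laptm5, the aspartic protease Ctsd and the progranulin gene Grn. The Hspa5 region stood at percentiles 99.7, 95.6 and 98.3 in DMSO and 99.1, 98.8, 99.9 and 97.8 in pracinostat. The start of Lgmn stood at 99.95, 97.7 and 99.3 in DMSO and 98.9, 99.9, 99.1 and 99.9 in pracinostat, so that both genes were near the top of every library.

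Genes of general upkeep were covered above the share of all genes in each list fixed for them. Constitutive regions were at 13 of 23 housekeeping genes (56.5%), 41 of 79 cytosolic ribosomal protein genes (51.9%), 24 of 48 splicing factors (50%), 23 of 50 subunits of oxidative phosphorylation (46.0%), 16 of 37 proteasome subunits (43.2%) and 16 of 42 genes of RNA polymerase II and general initiation (38.1%). Nearly all remaining genes of these lists had a kept summit in fewer libraries or in another region, as 36 of the 38 other ribosomal protein genes did. The actin gene Actb had a region of 5797 bp with percentiles 87.5, 93.7 and 96.9 in DMSO and 97.2, 95.1, 95.1 and 84.5 in pracinostat. The region shared by Prpf4, a splicing factor, and Cdc26, a subunit of the anaphase-promoting complex, was among the 10 highest in mean percentile, at 99.8, 99.9 and 99.8 in DMSO and 99.8, 99.8, 99.96 and 99.9 in pracinostat.

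Lists of signal-responsive genes ran from 30.4 to 57.1%. Among AP-1 and immediate early genes 16 of 28 (57.1%) had a constitutive region, with Junb, Egr1, Zfp36 and Klf10 highest, and among NF-kB and inflammatory genes 15 of 28 (53.6%), with Birc3, Nfkb2, Nfkbib and Rela highest. Birc3, an inhibitor of cell death induced by NF-kB, stood at 99.0, 99.8 and 99.2 in DMSO and 99.7, 99.9, 99.5 and 99.8 in pracinostat. The share was 7 of 17 (41.2%) for antigen presentation by MHC class I, led by B2m, Tapbp, Canx and Psmb9, and 7 of 23 (30.4%) for interferon response genes, led by Irf9, Stat2, Ifih1 and Trim25. Psmb9 and Tap1 lie head to head and share 1 region, and so do Nfkbib and Sirt2.

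Lists of macrophage genes ran from 35 to 40.0%. Of 40 lineage transcription factors 16 (40.0%) had one, led by Nfe2l2, the cytokine factor Stat3, Klf6 and Mef2d. When regions inside the gene were counted, 26 had one, against 18.2% of all genes. Of 37 phagocytic receptor and engulfment genes 13 (35.1%) had one, led by the signalling adaptor Tyrobp, the scavenger receptor Stab1, the CD47 receptor Sirpa and the receptor Lrp1. Pan-macrophage markers were covered in 7 of 20 (35%), namely Tyrobp, Laptm5, Cd68, C1qc, Csf1r, Fcer1g and Cd14. Counting regions inside the gene gave 16 of the 37 phagocytic genes and 11 of the 20 pan-macrophage markers. Tyrobp stood at 97.2, 99.3 and 95.5 in DMSO and 98.9, 97.6, 99.9 and 99.6 in pracinostat. Csf1r, the receptor for the growth factor that keeps macrophages alive, stood lower, at 90.6, 77.6 and 73.8 in DMSO and 83.0, 80.1, 87.7 and 93.0 in pracinostat, with the groups overlapping.

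Several defining markers had no constitutive region at a start or end. Itgam, which encodes the sorted antigen CD11b, had a kept summit near its start in 3 lists only, although the full lists of all 7 libraries held 1 to 3 summits there. Adgre1 (F4/80) had kept summits in 5 lists, C1qa in 6 and Ptprc (CD45) in 3, and the full lists held a summit at each in all 7 libraries. Ptprc had 1 constitutive region inside the gene. Cybb, an oxidase subunit, had no kept summit, and its full lists held 1 to 3 summits in 5 libraries. The start of Spi1 was marked in all 7 lists and left out for an IgG summit, while a region inside the gene (chr2:91095922-91099594) was constitutive with 44 kept summits and percentiles 95.3, 99.3 and 97.8 in DMSO and 98.1, 99.3, 93.6 and 96.1 in pracinostat.

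Markers that separate macrophage origins gave small counts at gene starts or ends, which moved with how the set was made. Of 25 microglia markers 3 (12.0%) had a constitutive region at a start or end, among them the lipid receptor Trem2 and Csf1r, against 15.3% of all genes. A further 20 had other kept summits, among them P2ry12 in 4 lists, Tmem119 and Cx3cr1 in 6 and Sall1 in 1. Of 25 markers of monocyte-derived macrophages 2 (8%) had one, Vim and Apoe, and 16 had other kept summits. With regions inside the gene counted, 10 of the microglia and 4 of the monocyte-derived markers had one, against 18.2% of all genes. Cx3cr1 had 1 constitutive region inside the gene. The microglia count at starts or ends rested on DMSO replicate 2: with the rule over the other 6 lists it was 8 of 25, with Cx3cr1, Tgfbr1, Mertk, Bin1 and Csf3r added. That rule also raised the count over all 21631 protein-coding genes, from 3313 to 3874. The monocyte-derived count at starts or ends was 1 when tied summits were left out.

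Markers of other cell types had no constitutive region at a start or end. This held for 20 neutrophil, 20 lymphocyte, 14 endothelial and mural, 18 neuron and astrocyte and 12 oligodendrocyte markers and for 30 developmental genes that are silent in adult blood cells. Kept summits elsewhere in the lists reached 6 of the neutrophil, 2 of the lymphocyte, 4 of the endothelial, 4 of the neuron and astrocyte and 2 of the oligodendrocyte markers, and 1 of the developmental genes. Counting regions inside the gene, 1 of the oligodendrocyte markers had a constitutive region. With the rule over the 6 lists without DMSO replicate 2, 1 neutrophil marker had a constitutive region, Csf3r, which is on the microglia list too. Under that rule 3874 of all 21631 protein-coding genes had one.

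**Figure D4:**
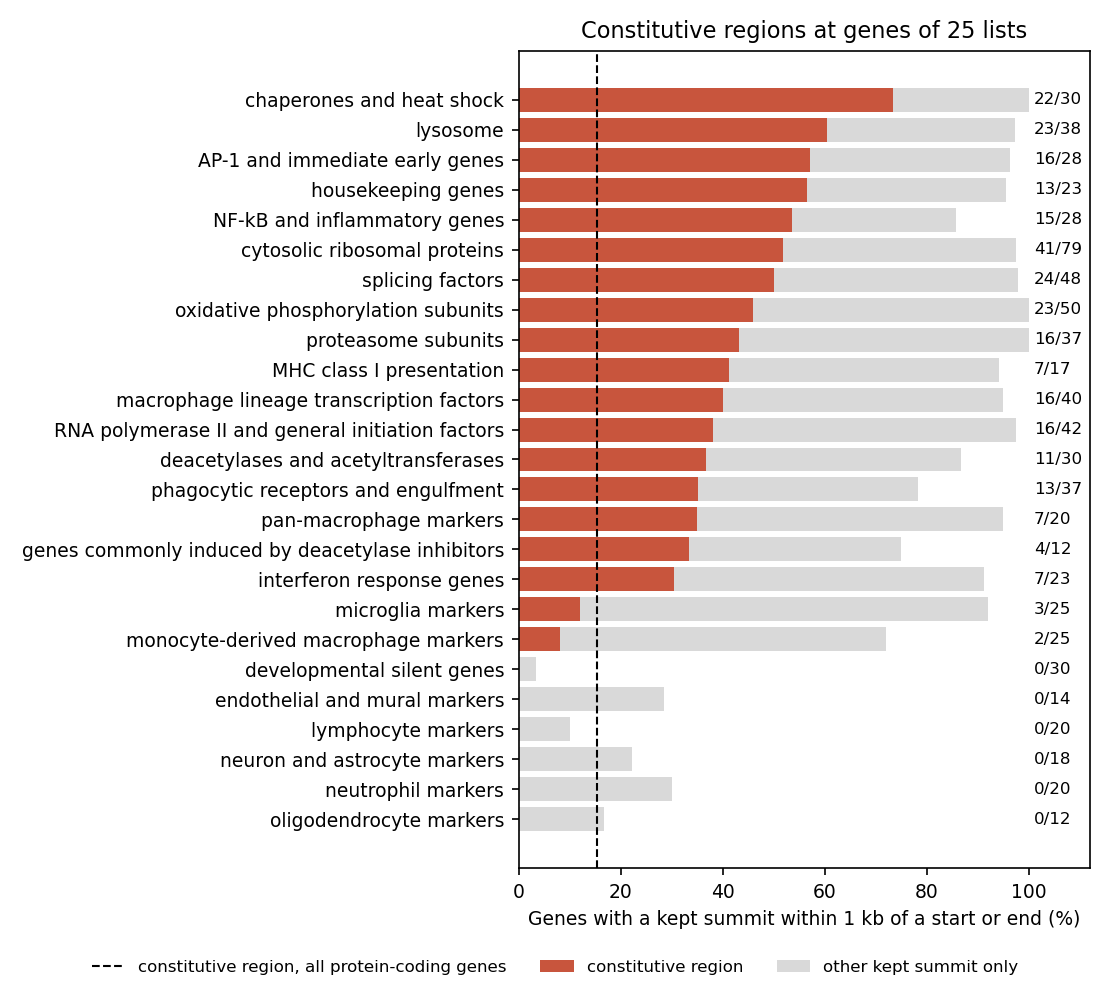
For 25 gene lists, the percentage of genes with a constitutive region at a start or end (red) and with other kept summits only (grey). Numbers at the right are genes with a constitutive region over genes found, and the dashed line is the 15.3% of all protein-coding genes; chaperones lead at 22 of 30 and 6 lists are at 0.

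Genes of deacetylases, acetyltransferases and their partners were among the marked genes. Of 30 deacetylase and acetyltransferase genes 11 (36.7%) had a constitutive region, namely the class I deacetylases Hdac1 and Hdac2, the class IIa deacetylase Hdac4, the sirtuins Sirt2 and Sirt3, the acetyltransferases Ep300, Kat5, Kat6b and Kat7, the corepressor Ncor1 and the acetyl-lysine reader Brd2. Hdac2 stood at 99.97, 99.5 and 99.96 in DMSO and 99.95, 96.8, 99.97 and 99.9 in pracinostat. Of 12 genes often induced by deacetylase inhibitors 4 had one (33.3%), the cell cycle inhibitor Cdkn1a, the linker histone gene Hist1h1c, Gadd45a and Gadd45b. Cdkn1a stood at 92.2, 77.6 and 94.0 in DMSO and 98.8, 95.3, 95.5 and 93.0 in pracinostat, with the lowest pracinostat library below the highest DMSO library. Nampt and Cdk6 were not members, Nampt because no region at its ends held more than 4 lists and Cdk6 because of an IgG summit.

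Width and summit number picked out another side of the set. Constitutive regions held a median of 13 kept summits over the 7 libraries and up to 74. The most were at Junb, an AP-1 subunit, with 11, 6 and 11 in DMSO and 11, 14, 11 and 10 in pracinostat, across 6084 bp that start upstream of the gene. The widest, 7085 bp inside Ptpre, a receptor-type tyrosine phosphatase, held 8, 3 and 11 in DMSO and 13, 11, 6 and 12 in pracinostat. DMSO replicate 2 had the fewest summits at both. A region 62416 bp from Zfp36l2, an RNA-decay factor, held 72 summits, and a region 95146 bp from Tomm20 held 68, as did the start of Adssl1. Other wide regions were inside 3110082I17Rik near Gpr146 (6941 bp) and at Ptbp1, a splicing regulator (6773 bp).

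The position of the highest summit agreed closely between libraries at some regions. The highest summits of the 7 libraries lay within 12 bp of each other at Lrr1, within 19 bp in a region 182444 bp from Marcks, and within 21 bp at Uvrag, inside Cyth4 and at Egr1. They were spread over 5288 bp in the Ptpre region, 4389 bp in the region far from Tomm20 and 4126 bp at B4galt1, where the libraries named different summits as the highest.

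A part of the set was far from any listed start site. Distances are to the start sites that the reference table gave, or to both ends of genes without one. A start that the table does not list would not be seen. There were 1824 constitutive regions more than 1 kb from a gene start or end, at a median distance of 13724 bp, with 1084 beyond 10 kb and 271 beyond 50 kb. The farthest were inside the long genes Zbtb20 (371481 bp from a listed start) and Rad51b (362365 bp, with Zfp36l1 nearest). The Zbtb20 region (chr16:42874768-42876053) stood at 96.1, 98.7 and 99.1 in DMSO and 97.4, 99.0, 90.6 and 95.7 in pracinostat. The highest mean percentile of the whole set, 99.9, belonged to a region between genes, 20858 bp from Nanos3 (chr8:84197160-84199461), which was at 99.8 or higher in every library. Most members inside 1 gene were in Zmiz1, a transcriptional coactivator, with 14, followed by 8 each in Lrp1, Tns3 and Tspan14. There were 35 microRNA hairpins inside constitutive regions, among them Mir191, Mir423 and Mir339. The share of all hairpins is not given here, so nothing is read from this count.

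Membership near the threshold rested on the order of ties. Tied summits were given their mean rank, 29471 at the threshold score of DMSO replicate 1 and 24288 at that of DMSO replicate 2. The 5 members nearest to the threshold by this rank, inside Gga3, 81825 bp from Arf6, inside Zmiz1, at Sp2 and inside Ostm1, had a highest summit in DMSO replicate 1 that was itself a tie at the score of the 30000th summit. The 313 members on a tied summit of DMSO replicate 2 stood at that library's threshold score too. The regions near Arf6, in Zmiz1 and in Ostm1 stood on a tied summit of DMSO replicate 2 as well. The 5 regions nearest outside, at Nono, near Ubash3b, at Tomm20, near Zfhx3 and near Fbxl22, had in pracinostat replicate 4 a summit at that library's threshold score that came too late in file order. Of regions without an IgG summit that missed exactly 1 list, 1309 missed DMSO replicate 2, 211 and 459 missed DMSO replicates 1 and 3, and 232, 184, 506 and 342 missed pracinostat replicates 1 to 4.

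Pracinostat and DMSO libraries were compared within this set by rank, since the scores were not comparable between libraries. The rule used the same scores, with a threshold well up the list in 6 libraries and at the lowest score of the list in DMSO replicate 2, which limits the differences that members can show. The counts that follow are therefore a description of the set, and nothing on the effect of the drug is read from them. With limma on normal scores of the ranks, 0 of 4715 constitutive regions differed at an adjusted p below 0.05 (lowest 0.475), against 2 of 48069 ranked regions (0.00416%). At an unadjusted p below 0.05 there were 143 members (3.03%), 71 higher and 72 lower with pracinostat, against 5.16% of all ranked regions (2.58% higher and 2.57% lower). Groups did not overlap, with pracinostat higher, at 133 members (2.82%, against 3.37% of all ranked regions) and, with pracinostat lower, at 146 (3.10%, against 3.05%). A change of acetylation by the same proportion at all sites would not be seen in ranks.

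None of the regions with the smallest p passed the test, and their values are given as measured. With pracinostat higher, the smallest p was at Atg4d, a protease that processes LC3-like proteins in autophagy. Atg4d was at 98.5, 77.6 and 91.0 in DMSO and 98.5, 99.95, 99.6 and 99.9 in pracinostat. The difference was 1.39 ± 0.386 (SE) normal-score units, where 1 unit is 1 SD of all ranked regions (limma adjusted p = 0.616). DMSO replicate 1 and pracinostat replicate 1 were nearly equal there. A region inside Lgmn (chr12:102426003-102426773), distinct from the one at its start, was at 73.4, 97.7 and 85.7 in DMSO and 99.4, 99.9, 98.9 and 99.5 in pracinostat (1.39 ± 0.394, adjusted p = 0.687). Gnai2, an inhibitory G protein subunit, was at 98.6, 86.6 and 95.5 in DMSO and 99.95, 99.9, 99.2 and 99.9 in pracinostat (1.30 ± 0.379, adjusted p = 0.720). The groups did not overlap at these 3 regions, and at each the DMSO libraries were more widely spread than the pracinostat ones. Next by p came a region 9695 bp from Shcbp1l, with a difference of 1.10 ± 0.339 (adjusted p = 0.891). There the groups overlapped, with DMSO replicate 3 at 99.998 and pracinostat replicate 2 at 99.996. A region 7259 bp from Il10ra followed, at 95.5, 91.0 and 98.5 in DMSO and 99.9, 99.6, 99.7 and 99.9 in pracinostat, without overlap.

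In the other direction, Flcn was at 99.9, 99.8 and 99.99 in DMSO and 99.0, 86.8, 98.9 and 93.7 in pracinostat, a difference of -1.41 ± 0.378 (limma adjusted p = 0.475). The start shared by Ndufa7, a subunit of respiratory complex I, and the ribosomal protein gene Rps28 was at 99.0, 99.3 and 98.8 in DMSO and 70.0, 94.9, 71.8 and 84.5 in pracinostat (-1.41 ± 0.415, adjusted p = 0.736). Vrk1, a nuclear kinase, was at 99.4, 99.9 and 98.8 in DMSO and 78.8, 94.4, 91.5 and 93.0 in pracinostat (-1.29 ± 0.401, adjusted p = 0.891). Morf4l1, a subunit of the NuA4 acetyltransferase complex, was at 95.5, 95.6 and 99.8 in DMSO and 86.3, 70.3, 78.8 and 76.6 in pracinostat (-1.31 ± 0.425, adjusted p = 0.891). All DMSO libraries were above all pracinostat libraries at these 4 regions, and the pracinostat libraries were spread more widely than the DMSO ones. Next by p came Ythdf3, at 99.99, 99.96 and 99.6 in DMSO and 99.8, 99.9, 80.7 and 96.5 in pracinostat (-1.11 ± 0.370, adjusted p = 0.891). The groups overlapped at Ythdf3, where pracinostat replicates 1 and 2 were above DMSO replicate 3.

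**Figure D5:**
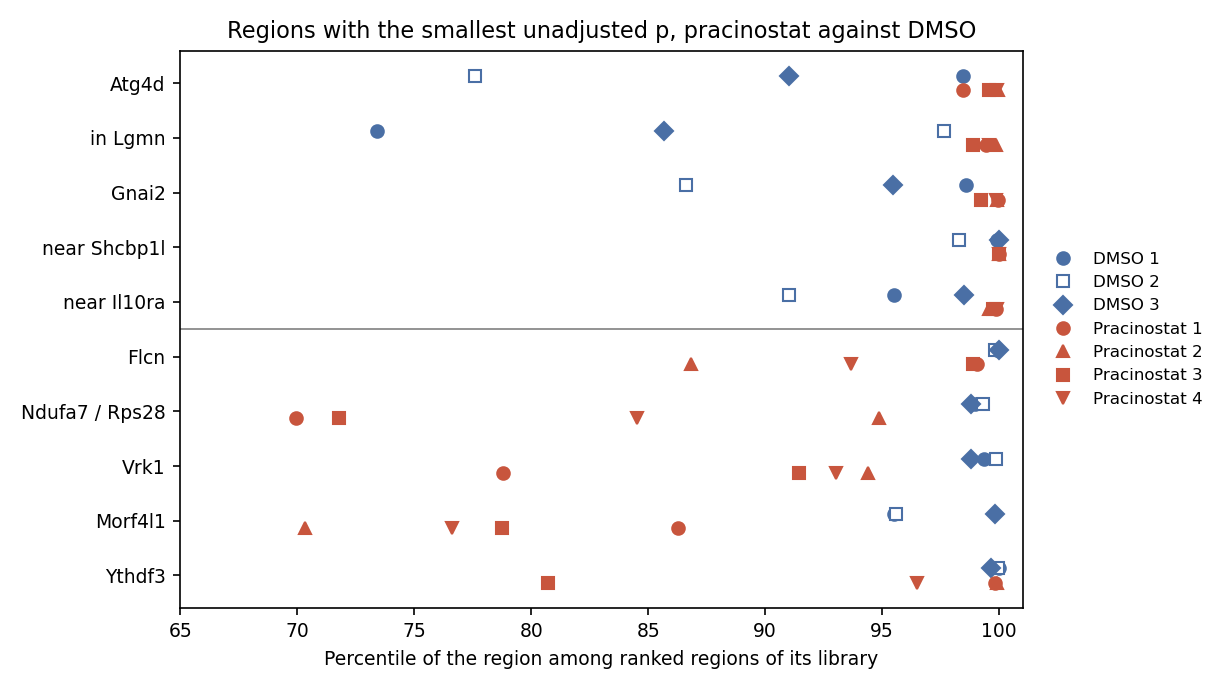
Percentile of 10 constitutive regions (rows) within each H3K27ac library (points; DMSO blue, pracinostat red), for the 5 smallest unadjusted p in each direction. The upper 5 rows are higher and the lower 5 lower with pracinostat, and none passed the adjusted test, the lowest adjusted p being 0.475 at Flcn.

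Some values summarise the set by library. Constitutive regions took up 37.0, 22.5 and 35.9% of the kept list in DMSO and 37.0, 34.5, 35.7 and 33.1% in pracinostat, with DMSO replicate 2 lowest. The pracinostat mean minus the DMSO mean was 3.27 points, and -1.37 points without DMSO replicate 2. Kept summits per region were 2.36, 1.43 and 2.28 in DMSO and 2.36, 2.196, 2.27 and 2.11 in pracinostat, which differ by 0.208. Leaving out DMSO replicate 2 turned this to -0.0873, and the full lists gave 0.561. Both values count summits that the rule itself used, so nothing is concluded from their exact two-sided permutation tests (p = 0.686 for each). Those tests were among the 5 adjusted together. The highest summit of a library lay a median of 74, 118 and 106 bp from the median position in the other 6 libraries in DMSO. In pracinostat it lay 79, 67, 107 and 80.5 bp away, and the groups overlap. The difference was -15.8 bp (exact two-sided permutation, p = 0.314, where 3 against 4 libraries can give no less than 0.0286). The regions were made by merging these same summits, which limits the distance, so nothing is concluded from this p-value. Between libraries, Spearman correlations of the scores over the 4715 members, which share the same threshold, averaged 0.34 within DMSO, 0.39 within pracinostat and 0.36 between the groups.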

How the data were processed

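H3K27ac and IgG CUT&Tag summits of 14 libraries were used, 1 deposited list per library. Each list gives a base and a −log10 significance value per summit, computed by the authors; whether of a p or a q value is not stated. The submitters' processing notes name MACS2 2.2.9.1, Bowtie2, HOMER and DESeq2 and the build mm10; what each did, the calling threshold and any use of IgG in calling were not given in the sources used here. The value is not normalized between libraries, so it served only to select and rank summits within a list. Read totals were not given either, which leaves the length of a list as the measure of depth.

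The 30000 highest-scoring summits per H3K27ac library were kept, with ties in file order, extended by 250 bp and merged; regions with a summit from all 7 libraries and no IgG summit inside were taken. The members and all gene lists were chosen with earlier results of these data known. RefSeq tables of GRCm38.p6 placed 17274 of 21631 protein-coding genes by start site and 4357 by both gene ends, with windows of 1 kb. Of 715 list genes, 711 matched by symbol, 1 by an older symbol, and 3 did not match. No genome sequence was at hand, so only promoter sequences are shown.

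For ranks, the highest score per region in the full list was ranked within each library over 48069 regions with a summit in at least 3 libraries, and regions without a summit tied at the bottom. Normal scores were compared with limma 3.58.1 (trend, robust; R 4.3.3) with Benjamini-Hochberg adjustment. Single values were compared by exact two-sided permutation, over the 35 choices of 3 among 7 libraries or the 128 sign assignments of 7 within-library differences, in Python with numpy 2.4.6 and scipy 1.17.1. The scripts were tested on simulated data. The labels speak of biological replicates without tying libraries to animals, and p-values therefore reflect how these samples vary. The sign-flip tests use the same regions in every library, so their p-values do not measure replication. Alternatives covered the number kept, ties, extension, IgG exclusion, windows, each library left out and the replicate number as a block.

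The text names regions by a rule: the 10 with the highest mean percentile, the 5 with the smallest p per direction, the 5 nearest the threshold on each side, the 5 widest, the 5 farthest from genes, the 5 with the most summits, the 5 with the smallest and the 5 with the largest range of summit positions, up to 4 genes per list by mean percentile, and Spi1, Csf1r, Itgam, Actb, P2ry12, Cdkn1a, Nampt and Cdk6; of these the text gives those that fit each paragraph. The remaining members of lists with few hits, other markers and the genes and microRNAs with members inside were named after their values were seen. The values of 1 list gene are not reported here.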

Additional observations from a re-analysis of the deposited data

How the results depend on the processing

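The count of constitutive regions followed the number of summits kept, with 3137 at 20000 and 7759 at 50000 per library. Other ways of making the set gave 3969 to 5002 regions (random or dropped ties, extension of 100 or 500 bp, no IgG exclusion), and leaving 1 library out of the rule gave 4892 to 6020, the highest without DMSO replicate 2. Of the 4715 regions, 4444 overlapped one made with random ties and 4099 one made without ties.

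The excess of summits at gene starts or ends ran from 25.3 to 27.9 points with each library left out, and the CpG difference from 0.0336 to 0.0385. The share of a list inside constitutive regions reversed to -1.37 points without DMSO replicate 2 and ran up to 5.89 (without DMSO replicate 1); summits per region reversed to -0.0873 without DMSO replicate 2 and ran up to 0.375 with a library left out, and to 0.561 over the full lists. The spread of summit position ran from -28.4 to -6.63 bp. With a library left out, 2 against 4 or 3 against 3 libraries cannot pass the threshold, so those p-values say nothing on stability. With the limma fit, 0 members were called in every setting run, with 121 to 172 at an unadjusted p below 0.05 when 1 library was left out. Fitted with the replicate number as a block, 0 members were called and 130 had an unadjusted p below 0.05. Same-numbered libraries correlated at -0.00943, -0.0204 and -0.0230 in their deviations from the group means, and differently numbered ones at -0.0389 to 0.0505. The labels do not say whether the numbers pair the samples, and such low correlations cannot decide it. Over the 25 gene lists, the counts moved by more than 1.5 times at the microglia and neutrophil markers without DMSO replicate 2 (8 and 1). They also did so at the monocyte-derived markers without ties (1). The count over all genes moved from 3313 to 3874 without DMSO replicate 2 and to 2998 without ties. These 2 settings were chosen after seeing the data.

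DMSO replicate 2 has the shortest list, and many of its members share a percentile such as 77.6.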
